A study of Danio rerio with 24 samples.

Results

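Expression of 10 genes of glucose production and the fasting response was followed in zebrafish larvae with and without a functional klf9 gene, which encodes the transcription factor Krüppel-like factor 9. The genes were chosen by name for their roles, with earlier results of these data known, and found by symbol in the gene count table, which listed 31242 genes. All 10 of 10 had 1 entry each and passed the filter on low counts. They are pck1 (ENSDARG00000013522), pck2 (ENSDARG00000020956), fbp1a (ENSDARG00000021366), fbp1b (ENSDARG00000020364), g6pca.1 (ENSDARG00000031616), g6pca.2 (ENSDARG00000013721), gck (ENSDARG00000068006), ppargc1a (ENSDARG00000067829), irs2b (ENSDARG00000075282) and igfbp1a (ENSDARG00000099351).

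RNA-seq had been made from 24 samples, each a pool of 6 whole larvae raised in one dish and collected at 5 days post-fertilization. The homozygous klf9-/- mutants descended from the AB strain, and the wildtype controls came from the same grandparents. Pools of both genotypes were frozen at Zeitgeber times (ZT, hours from the onset of light) ZT-3, ZT0 and ZT+2.5, with 4 pools in each of the 6 groups. No other treatment separated the groups, the mutation was present in every cell of the mutants from fertilization onward, and the replicates were separate dishes of larvae. Because whole larvae were pooled, fewer cells of a type and less RNA per cell cannot be told apart.

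Gluconeogenesis makes new glucose from lactate, amino acids and glycerol, mainly in the liver and the kidney, and it is used when no food comes in. Phosphoenolpyruvate carboxykinase, fructose-1,6-bisphosphatase and glucose-6-phosphatase are the steps that bypass the irreversible reactions of glycolysis. Many of their genes are turned on by glucagon and glucocorticoids and turned down by insulin. Glucokinase, which traps glucose in liver cells, is under the opposite control by insulin and glucagon. Zebrafish larvae at this age still carry some yolk while they begin to feed.

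Total expected counts were 41444609 to 64452247 per sample, with medians of 46426734 in klf9-/- and 54621233 in wildtype. Replicates of a group differed by 2.33 to 11.1 times the variance of counting noise over 36 pairs. The first principal component (PC1), which took 21.7% of the variance over 25362 genes, separated replicates within groups, and its score was a covariate in the edgeR fits unless stated otherwise. The score was not balanced between genotypes: klf9-/- minus wildtype was -0.08 SD at ZT-3, 0.71 SD at ZT0 and 0.25 SD at ZT+2.5. The paper traced the first component of its own analysis in large part, and possibly entirely, to how the RNA was extracted. klf9 transcript checked the genotype labels: it had 17.7, 19.8, 17.4 and 10.6 CPM in klf9-/- at ZT-3, against 49.9, 35.7, 65.6 and 47.9 CPM in wildtype. CPM are a library's counts scaled to a common total and for composition. At ZT0 klf9 was again lower in every klf9-/- pool, and at ZT+2.5 the highest klf9-/- pool, with 18.7 CPM, lay above the lowest wildtype pool, with 15.3 CPM.

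A gene is said to rise or fall where its adjusted p (edgeR's quasi-likelihood test, Benjamini-Hochberg over all genes tested) was at most 0.1 and its log2 fold change at least 0.5 in size. Over all time points, 3 of the 10 genes rose in klf9-/- and none fell, where 4.91% of all 23158 genes tested passed in either direction. These were pck1 and both glucose-6-phosphatase genes, g6pca.1 and g6pca.2. The log2 fold change was positive for 9 of 10 genes, with a median of 0.27 over the 10 and 0.01 over all genes. On adjusted p alone 6 of 10 passed, with pck2, fbp1a and irs2b added, and 36% of all genes did so.

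**Figure D1:**
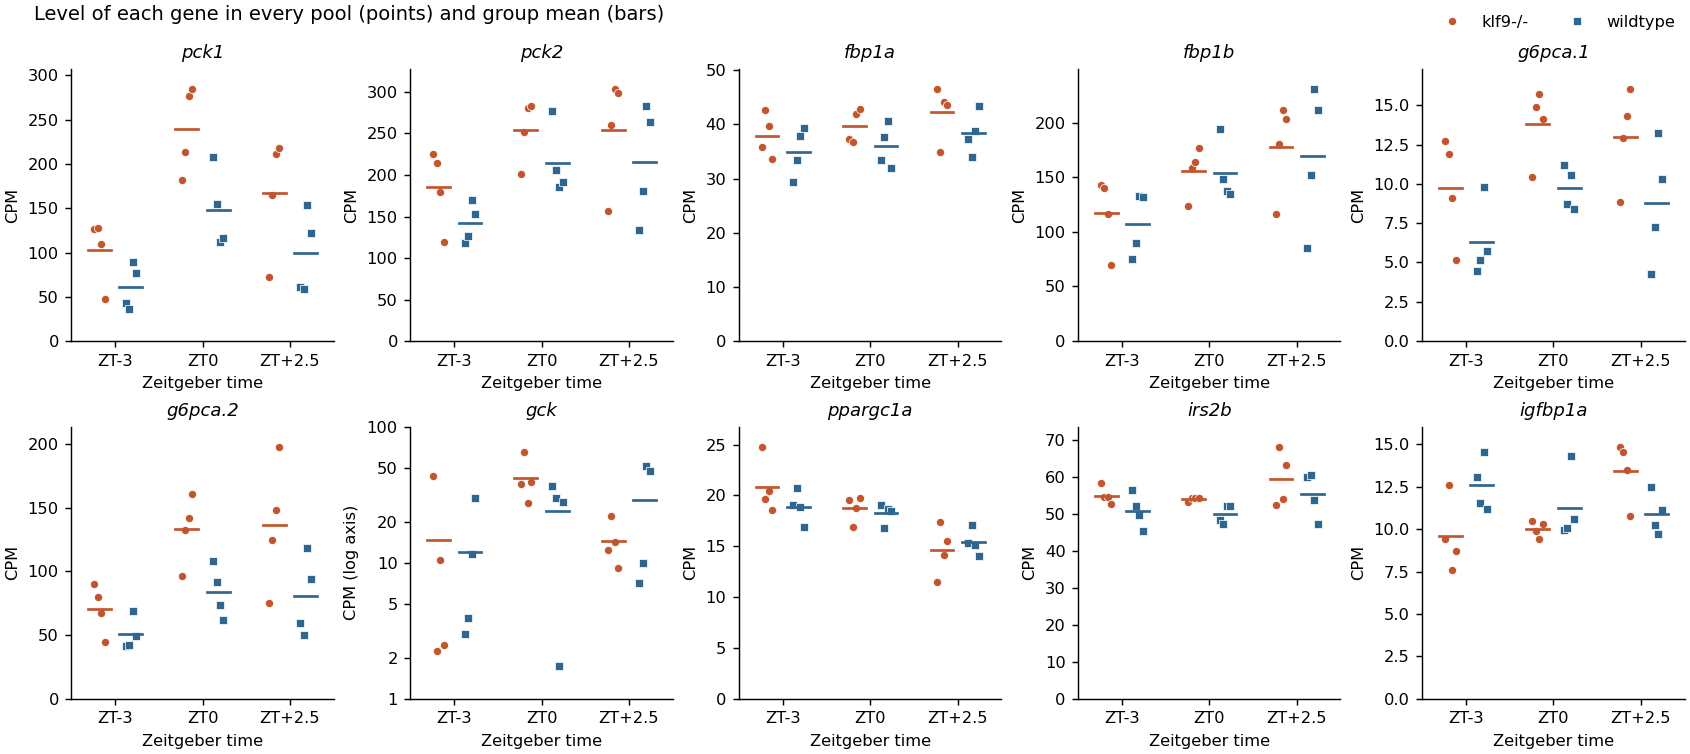
CPM (y axis, starting at 0 except for gck, which has a log axis) of the 10 genes at 3 Zeitgeber times, with 1 point per pool and a bar at the group mean, klf9-/- as orange circles and wildtype as blue squares. The pck1 and g6pca.2 means were higher in klf9-/- at each time point and the pools overlapped, while gck spread from 1.75 to 65.1 CPM.

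pck1 encodes the cytosolic phosphoenolpyruvate carboxykinase, which commits oxaloacetate to glucose production. At ZT0 pck1 had 181, 213, 277 and 284 CPM in klf9-/-, against 207, 155, 112 and 116 CPM in wildtype. Of the 16 possible pairs of a klf9-/- and a wildtype pool, 15 had the klf9-/- pool higher, since only the lowest klf9-/- pool lay under the highest wildtype pool. The log2 fold change with PC1 in the fit was 0.94 ± 0.10 (SE, n = 4 pools per genotype, edgeR quasi-likelihood adjusted p = 0.0016), or 1.92-fold higher. At ZT+2.5 pck1 had 72.6, 165, 211 and 218 CPM in klf9-/-, against 61.5, 58.7, 154 and 122 CPM in wildtype. There 14 of 16 pairs had the klf9-/- pool higher, and pck1 rose by 0.90 ± 0.18 (SE, edgeR adjusted p = 0.047). At ZT-3 pck1 had 127, 128, 109 and 47.2 CPM in klf9-/-, against 43.1, 36.6, 89.2 and 76.9 CPM in wildtype. Here 3 klf9-/- pools exceeded every wildtype pool and the fourth lay among them, and the log2 fold change of 0.67 ± 0.23 did not pass the test (edgeR adjusted p = 0.16). Over all time points pck1 rose by 0.87 ± 0.12 (SE, n = 12 pools per genotype, edgeR adjusted p = 9.5e-06).

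The catalytic subunit of glucose-6-phosphatase, which releases free glucose in the last step, is encoded by g6pca.1 and g6pca.2 among others. The 2 genes are paralogs, and the authors' estimation could divide reads that fit both, but the expected counts were whole numbers for g6pca.1 in all 24 pools and for g6pca.2 in all but 4. At ZT0 g6pca.2 had 96.7, 132, 142 and 161 CPM in klf9-/-, against 109, 92.0, 73.7 and 62.2 CPM in wildtype. In 15 of 16 pairs the klf9-/- pool was higher, and g6pca.2 rose by 0.89 ± 0.08 on the log2 scale (SE, edgeR adjusted p = 3.6e-04). At ZT+2.5 g6pca.2 had 75.3, 125, 148 and 198 CPM in klf9-/-, against 59.3, 49.9, 119 and 94.2 CPM in wildtype. It rose there by 0.87 ± 0.15 (SE, edgeR adjusted p = 0.026), with the klf9-/- pool higher in 14 of 16 pairs.

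At ZT-3 the g6pca.2 levels were 90.5, 79.6, 67.1 and 44.6 CPM in klf9-/- and 41.2, 42.5, 69.2 and 49.5 CPM in wildtype. The pools overlapped and the log2 fold change of 0.41 ± 0.16 did not pass (edgeR adjusted p = 0.21). g6pca.1 had 10.5, 14.9, 15.7 and 14.1 CPM in klf9-/- at ZT0, against 11.2, 8.71, 10.5 and 8.38 CPM in wildtype. It rose by 0.60 ± 0.12 (SE, edgeR adjusted p = 0.020), with 14 of 16 pairs higher in klf9-/-. At ZT+2.5 its log2 fold change was 0.71 ± 0.19 (edgeR adjusted p = 0.10), just outside the threshold, and at ZT-3 it was 0.53 ± 0.25 (adjusted p = 0.28). Over all time points g6pca.1 rose by 0.65 ± 0.12 (edgeR adjusted p = 2.8e-04) and g6pca.2 by 0.73 ± 0.10 (edgeR adjusted p = 1.4e-05).

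Taken singly, the time points had 0 of 10 genes called at ZT-3 (2.92% of all genes), 3 of 10 at ZT0 (3.43% of all genes) and 2 of 10 at ZT+2.5 (2.28% of all genes). At ZT-3, 4 of 10 had an unadjusted p under 0.05 by edgeR, against 4620 of all 22603 genes, and DESeq2 called 1 of 10 and 722 of all genes. The edgeR count of 0 changed with single pools. Without wildtype replicate 3, pck1 (0.90, edgeR adjusted p = 0.028), g6pca.1 (0.82, 0.021) and g6pca.2 (0.59, 0.015) all passed. Without klf9-/- replicate 2, gck (0.54, 0.033) and igfbp1a (-0.57, 0.030) passed at ZT-3. A pass at one time point and not at another is not a difference between them, and the interaction of genotype and time passed for 0 of 10 genes, against 0.0173% of all genes. edgeR gave an unadjusted interaction p under 0.05 for 2 of 10, igfbp1a (adjusted p = 0.86) and g6pca.2, and for 1110 of all 23158 genes. For the interaction DESeq2 called 0 of 10 and 36 of all genes.

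The calls at single time points depended on PC1, whose score differed by 0.71 SD between the genotypes at ZT0. With no PC1 covariate, 0 of 10 genes passed at ZT0, and 473 of all genes did, against 772 with it. There pck1 had a log2 fold change of 0.68 (edgeR adjusted p = 0.14), g6pca.1 0.49 (0.10) and g6pca.2 0.65 (0.13). At ZT+2.5 without PC1, pck1 had 0.75 (edgeR adjusted p = 0.60) and g6pca.2 0.76 (0.48), and 144 of all genes passed, against 514 with it. Over all time points the 3 genes passed without it as well, at 0.73 for pck1, 0.57 for g6pca.1 and 0.63 for g6pca.2. At ZT+2.5 same-numbered pools deviated together, and with the replicate number as a block beside PC1, pck1 (1.06, edgeR adjusted p = 0.21) and g6pca.2 (0.95, 0.39) did not pass. That fit took genotype, PC1 and replicate terms from 8 pools, so little was left to estimate the spread. The folds were larger than without the block, so the lost calls do not show that pairing removed the difference. Leaving out klf9-/- replicate 3 (0.91, 0.13), wildtype replicate 1 (0.92, 0.12) or wildtype replicate 2 (0.86, 0.12) also ended the pck1 call at ZT+2.5, and without wildtype replicate 3 g6pca.1 passed there (0.87, 0.066). The 3 calls at ZT0 held without any 1 of the 8 pools.

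**Figure D2:**
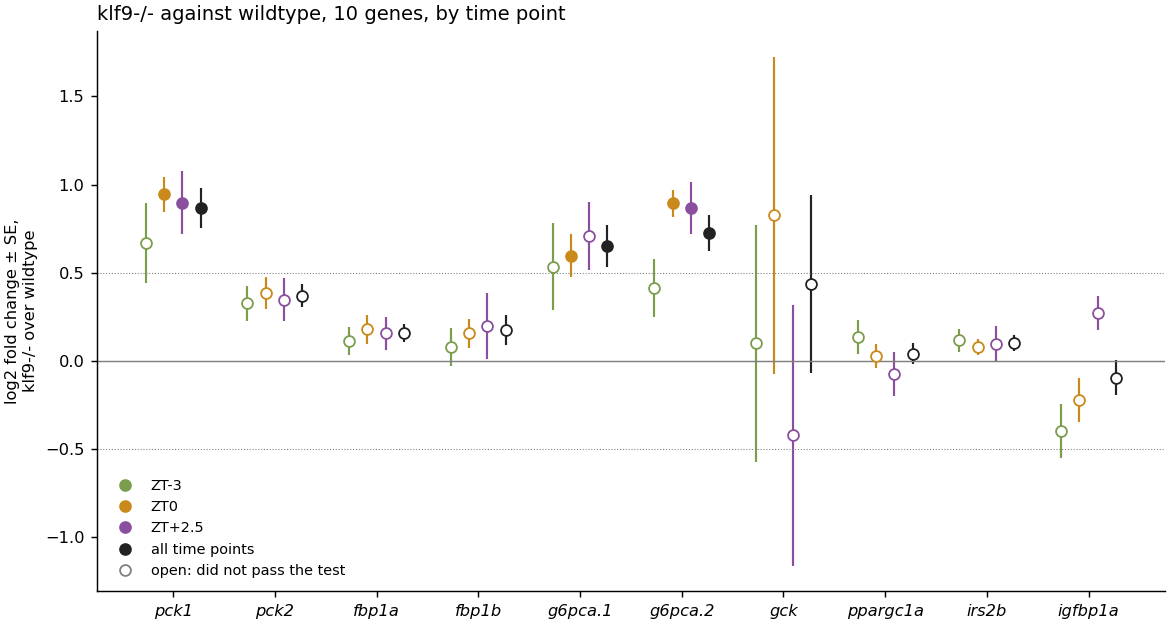
Log2 fold change of klf9-/- over wildtype (y axis, edgeR with PC1, ± SE) of the 10 genes at ZT-3, ZT0, ZT+2.5 and over all time points, filled where the gene passed the test and open where it did not; dotted lines mark 0.5 and -0.5. Filled points belong to pck1, g6pca.1 and g6pca.2 only, and gck has the widest errors.

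pck2, the mitochondrial phosphoenolpyruvate carboxykinase, had log2 fold changes under those of pck1. It had 201, 252, 280 and 284 CPM in klf9-/- at ZT0, against 277, 207, 185 and 191 CPM in wildtype, and the pools overlapped. The log2 fold change was 0.33 ± 0.10 at ZT-3 (edgeR adjusted p = 0.095), 0.39 ± 0.09 at ZT0 (adjusted p = 0.033) and 0.35 ± 0.12 at ZT+2.5 (adjusted p = 0.16). All 3 were under the fold threshold, as was 0.37 over all time points (edgeR adjusted p = 1.7e-04).

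The 2 genes for fructose-1,6-bisphosphatase, fbp1a and fbp1b, did not pass at any time point. fbp1b averaged 156 ± 22.8 CPM in klf9-/- and 153 ± 27.5 CPM in wildtype at ZT0 (SD, n = 4 each), and its log2 fold changes were 0.08 to 0.20. fbp1a averaged 39.7 ± 3.14 CPM in klf9-/- and 35.9 ± 3.94 CPM in wildtype at ZT0, with log2 fold changes of 0.11 to 0.18. Over all time points fbp1a had 0.16 ± 0.05 (edgeR adjusted p = 0.024) and fbp1b 0.18 ± 0.08 (adjusted p = 0.12). Both lie on the chromosome of klf9 in the GRCz12tu assembly, with 344 tested genes between klf9 and fbp1a and 192 between klf9 and fbp1b. The 6 others in the RefSeq table lie on other chromosomes, and g6pca.1 and g6pca.2 were not matched in it.

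Glucokinase, gck, phosphorylates glucose and so runs against the glucose-6-phosphatase step. Its level varied widely between pools of some groups, and group means were 12.0 to 42.3 CPM. The spread was smallest in klf9-/- at ZT0 and ZT+2.5, where the highest pool exceeded the lowest 2.37-fold and 2.41-fold. At ZT-3 gck had 43.3, 2.23, 10.4 and 2.49 CPM in klf9-/-, against 2.99, 3.93, 11.5 and 29.7 CPM in wildtype. At ZT0 it had 37.7, 65.1, 27.5 and 38.9 CPM in klf9-/-, against 36.4, 29.9, 1.75 and 28.1 CPM in wildtype. The highest pool of a group exceeded the lowest 19.4-fold in klf9-/- at ZT-3 and 20.9-fold in wildtype at ZT0, where a single pool was low and the other 3 were alike. At ZT+2.5 the klf9-/- pools had 12.4, 21.9, 14.2 and 9.11 CPM, and the wildtype pools fell apart into 7.04 and 10.0 CPM on one side and 51.4 and 47.3 CPM on the other. In time order, log2 fold changes of gck were 0.10 ± 0.67, 0.83 ± 0.90 and -0.42 ± 0.74, none of which passed. The coefficient of variation within groups was 37.8% to 134% for gck and 0.935% to 12.5% for irs2b.

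The regulators differed little between the genotypes. irs2b, an insulin receptor substrate that carries the insulin signal into the cell, had 53.2, 54.3, 54.1 and 54.2 CPM in klf9-/- at ZT0, against 48.2, 47.3, 52.1 and 52.0 CPM in wildtype. Every klf9-/- pool was above every wildtype pool there, but the log2 fold change of 0.08 ± 0.04 did not pass (edgeR adjusted p = 0.30), nor did 0.10 ± 0.04 over all time points, which was under the fold threshold (adjusted p = 0.077). ppargc1a, the coactivator PGC-1α that switches on gluconeogenic and mitochondrial genes in mammalian liver, had log2 fold changes of 0.14 ± 0.10, 0.03 ± 0.07 and -0.07 ± 0.12 in time order, none of which passed.

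igfbp1a encodes a secreted protein that binds insulin-like growth factors and is made by the fasting liver. It had 9.41, 12.6, 7.59 and 8.72 CPM in klf9-/- at ZT-3, against 13.1, 11.6, 14.5 and 11.2 CPM in wildtype. At ZT+2.5 it had 14.9, 14.6, 13.5 and 10.8 CPM in klf9-/-, against 12.5, 10.2, 9.73 and 11.1 CPM in wildtype. The sign thus differed, at -0.40 ± 0.15 (SE, edgeR adjusted p = 0.18) at ZT-3 and 0.27 ± 0.10 (adjusted p = 0.16) at ZT+2.5, with overlap of the pools at both, and the interaction did not pass.

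Around the onset of light, pck1 was the only 1 of the 10 genes that passed the test in both genotypes. At ZT0 against ZT-3 it rose by 1.28 ± 0.20 on the log2 scale in klf9-/- (edgeR adjusted p = 2.2e-04) and by 0.89 ± 0.20 in wildtype (adjusted p = 0.0096), and in both genotypes every pool of ZT0 was above every pool of ZT-3. After the lights came on it fell by 0.76 ± 0.20 in klf9-/- (ZT+2.5 against ZT0, edgeR adjusted p = 0.015), with the later pool higher in 3 of 16 pairs, and by 0.58 ± 0.20 in wildtype (adjusted p = 0.061), with the later pool higher in 4 of 16. In time order, the 3 averages were 103 ± 38.0, 239 ± 49.9 and 167 ± 66.9 CPM in klf9-/-, and 61.4 ± 25.6, 148 ± 44.3 and 98.9 ± 46.7 CPM in wildtype (SD, n = 4 each). Without PC1 neither fall passed (edgeR adjusted p = 0.60 in klf9-/- and 0.53 in wildtype), with log2 fold changes of -0.52 in klf9-/- and -0.58 in wildtype, and leaving out 5 of the 8 wildtype pools of these times, 1 at a time, ended the wildtype call (adjusted p up to 0.20). The same libraries serve in more than 1 comparison of time and in those of genotype.

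At ZT0 against ZT-3 in klf9-/-, 2 of 10 genes passed, pck1 and g6pca.2, where 3.6% of all genes did. g6pca.2 rose by 0.94 ± 0.15 there (edgeR adjusted p = 2.9e-04), with every ZT0 pool above every ZT-3 pool. pck2 (0.48, edgeR adjusted p = 0.0073) and fbp1b (0.45, adjusted p = 0.054) were under the fold threshold. gck had 2.03 ± 0.84 (edgeR adjusted p = 0.14) and passed without klf9-/- ZT-3 replicate 1 (3.02, adjusted p = 0.051), the pool with 43.3 CPM, or without wildtype ZT0 replicate 3 (2.02, adjusted p = 0.092). g6pca.1, at 0.55 ± 0.21 (edgeR adjusted p = 0.11), passed without wildtype replicate 3 or 4 of ZT-3, klf9-/- ZT0 replicate 4, or wildtype replicate 1 or 3 of ZT+2.5 (0.54 to 0.64). pck2 passed without klf9-/- replicate 2 (0.50) or 3 (0.51) of ZT-3 or klf9-/- ZT0 replicate 4 (0.53). In wildtype 1 of 10 passed, pck1, where 2.15% of all genes did, and g6pca.2 had 0.40 ± 0.16 (edgeR adjusted p = 0.14). As a log2 ratio of mean CPM, with no PC1, the g6pca.2 rise was 0.73 in wildtype and 0.92 in klf9-/-. Without wildtype ZT-3 replicate 3, g6pca.1 (0.65, adjusted p = 0.053) and g6pca.2 (0.57, adjusted p = 0.023) passed too.

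At ZT+2.5 against ZT0, 1 of 10 passed in klf9-/-, where 3.55% of all genes did, and 1 of 10 in wildtype, where 3.43% did, pck1 in each. In klf9-/- every ZT+2.5 pool of igfbp1a was above every ZT0 pool, by 0.43 ± 0.14 (edgeR adjusted p = 0.050), and every ZT+2.5 pool of gck was under every ZT0 pool, by -1.79 ± 0.82 (adjusted p = 0.19). Neither passed, the first on fold and the second on adjusted p, though igfbp1a did without klf9-/- ZT+2.5 replicate 4 (0.51).

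At ZT+2.5 against ZT-3, 4 of 10 passed in klf9-/-, where 7.46% of all genes did. g6pca.2 rose by 0.80 ± 0.15 (edgeR adjusted p = 5.6e-04), and pck1 by 0.51 ± 0.20 (adjusted p = 0.065) and fbp1b by 0.50 ± 0.15 (adjusted p = 0.016) at the edge of the fold threshold. ppargc1a fell by 0.51 ± 0.10 (edgeR adjusted p = 6.7e-04). It had 11.5, 17.4, 14.2 and 15.6 CPM at ZT+2.5, against 24.8, 19.6, 20.4 and 18.5 CPM at ZT-3, and every later pool was under every earlier one. It missed the fold threshold without klf9-/- ZT-3 replicate 1 (-0.41), ZT+2.5 replicate 1 (-0.40) or ZT+2.5 replicate 3 (-0.49). pck1 lost its call without any of 4 klf9-/- pools of these times (0.39 to 0.51, edgeR adjusted p up to 0.20), and fbp1b missed the fold threshold without any of 9 of the 24 pools, with 0.43 at the lowest. Without PC1, pck1 (0.70, edgeR adjusted p = 0.27) and fbp1b (0.60, adjusted p = 0.17) did not pass, at larger folds. igfbp1a, at 0.48 ± 0.14 (edgeR adjusted p = 0.014), passed without klf9-/- ZT-3 replicate 2 (0.67) or ZT+2.5 replicate 4 (0.57).

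In wildtype 0 of 10 passed at ZT+2.5 against ZT-3, where 6.85% of all genes did, and DESeq2 called 0 of 10 and 1520 of all genes. An unadjusted p under 0.05 was reached by 4 of 10 in edgeR, and by 7866 of all 23158 genes. pck2 (0.35, edgeR adjusted p = 0.037), fbp1b (0.40, adjusted p = 0.063) and ppargc1a (-0.30, adjusted p = 0.036) were under the fold threshold. Log2 ratios of mean CPM, with no PC1, were 0.69 for pck1, 0.60 for pck2, 0.66 for fbp1b, 0.67 for g6pca.2 and -0.29 for ppargc1a. In klf9-/- they were 0.70, 0.46, 0.60, 0.95 and -0.51 in that order. By edgeR without PC1, 0 of 10 passed in wildtype, and 1411 of all genes. The 4 calls in klf9-/- and 0 in wildtype are not a difference between the genotypes, since the interaction passed for 0 of 10. Without wildtype ZT-3 replicate 3, pck1 (0.54, adjusted p = 0.048), fbp1b (0.51, adjusted p = 0.024) and g6pca.2 (0.52, adjusted p = 0.016) passed, and without ZT+2.5 replicate 1 fbp1b did (0.58, adjusted p = 0.0024).

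By edgeR with PC1, markers of liver, intestine and exocrine pancreas also rose in klf9-/- over all time points. Of 12 liver genes, among them fabp10a, the fibrinogen genes and ceruloplasmin (cp), 7 rose and none fell in klf9-/- over all time points, with a median log2 fold change of 0.54 over the 12, where 4.91% of all genes passed. Taking each time point alone, ZT-3 had 4 of the 12 called higher (2.92% of all genes called), ZT0 had 8 (3.43%) and ZT+2.5 had 1 (2.28%). DESeq2 called 4, 8 and 5 in that order, and 722, 734 and 680 of all genes. The median edgeR log2 fold changes of the 12 were 0.41, 0.56 and 0.58. At ZT-3 their summed level was 4004 to 6963 CPM in klf9-/- (median 6114 CPM) and 2811 to 4998 CPM in wildtype (median 4382 CPM). At ZT0 it was 5828 to 7610 CPM in klf9-/- (median 7280 CPM) and 4275 to 5790 CPM in wildtype (median 4983 CPM), with no overlap. At ZT+2.5 it was 5368 to 7552 CPM in klf9-/- (median 7297 CPM) and 2263 to 6615 CPM in wildtype (median 5530 CPM). Within time points the sum was higher in klf9-/- by 0.52 on the log2 scale (two-sided exact permutation of the genotypes inside each time point, p = 0.0016, n = 12 pools per genotype). No liver marker was at 0 in any group. The sum is unweighted, so abundant markers count most: at ZT-3 apoa2 averaged 2147 of 5799 CPM in klf9-/- and 1490 of 4143 CPM in wildtype. Of the other tissues that make glucose, kidney tubule markers differed by 0.17 (exact permutation p = 0.041) and intestine markers by 0.35 (exact permutation p = 0.072). By edgeR with PC1, 5 of 9 intestine markers rose over all time points, with a median log2 fold change of 0.50. Exocrine pancreas markers differed by 0.52 (exact permutation p = 0.20), with 11 of 11 higher in klf9-/- by edgeR with PC1, fast muscle by 0.04 (exact permutation p = 0.64) and neurons by 0.08 (exact permutation p = 0.20). The part of these tissues in the differences of the 10 genes was not tested.

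**Figure D3:**
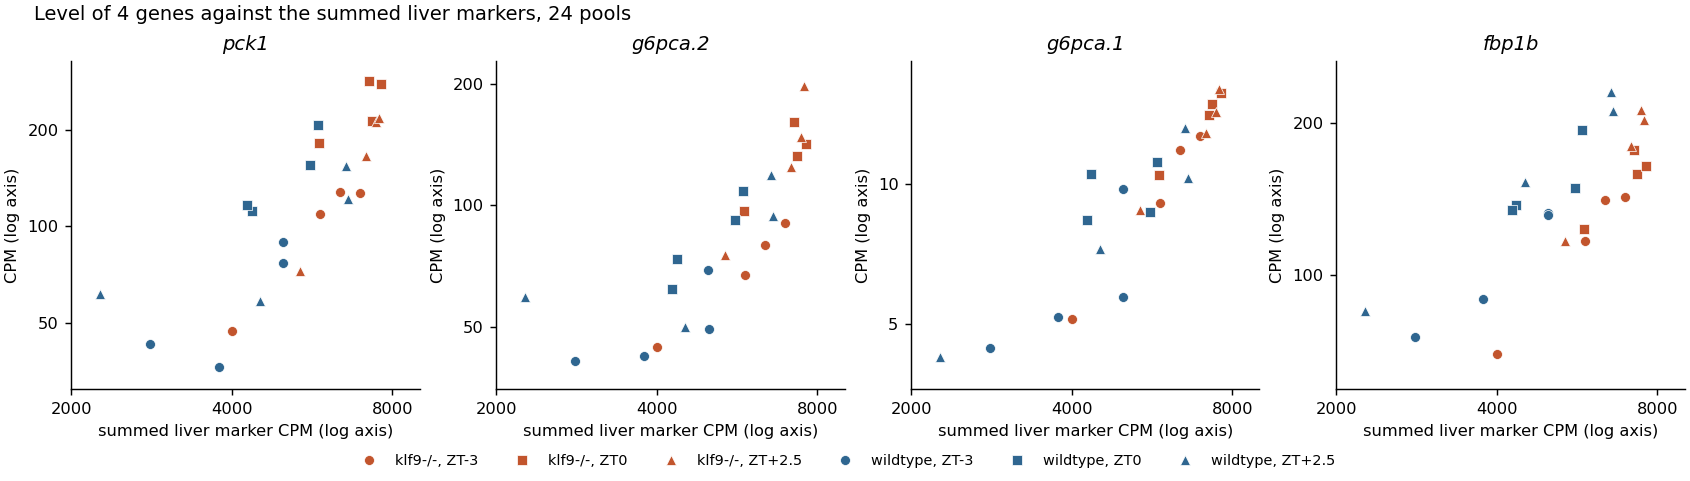
CPM of pck1, g6pca.2, g6pca.1 and fbp1b (y axis, log) against the summed CPM of 12 liver markers (x axis, log) in the 24 pools, klf9-/- in orange and wildtype in blue, with 1 shape per time point. In the g6pca.1 panel the pools of both genotypes lie along 1 band. In the fbp1b panel the klf9-/- pools of each time point have less fbp1b relative to the liver sum than its wildtype pools. The fbp1b level itself was not lower in klf9-/-, with a log2 difference in CPM of 0.09 within time points.

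Within groups, the levels of 5 of the genes followed the liver sum from pool to pool, with correlations of 0.80 for pck1, 0.89 for pck2, 0.96 for fbp1b, 0.88 for g6pca.1 and 0.75 for g6pca.2 over 24 pools, after each group's mean was removed. Libraries, scaling and PC1 are shared by both sides of such a correlation. gck followed it at 0.62, ppargc1a at 0.09, irs2b at -0.38 and igfbp1a at -0.26. The same 5 genes followed the intestine sum at least as closely, at 0.93 for pck1, 0.98 for pck2, 0.96 for fbp1b, 0.91 for g6pca.1 and 0.89 for g6pca.2. In the same order they were at 0.88, 0.93, 0.84, 0.79 and 0.87 with the kidney sum. With the pancreas sum they were at 0.85, 0.93, 0.87, 0.80 and 0.88. The liver value was under both for pck1, pck2 and g6pca.2 and above both for fbp1b and g6pca.1. Which tissue the transcripts came from was not tested. Within groups, the correlation with PC1 was -0.89 for pck1 and pck2, -0.87 for g6pca.2, -0.86 for fbp1b and -0.75 for g6pca.1. With group means kept, these were -0.57 for pck1, -0.71 for pck2, -0.55 for g6pca.2, -0.79 for fbp1b and -0.53 for g6pca.1. Over the 24 pools the tissue sums followed PC1 too. They were at 0.93 for neurons, 0.47 for fast muscle, -0.84 for pancreas, -0.67 for kidney, -0.66 for intestine and -0.55 for liver. The PC1 covariate thus varied with these sums, and why was not tested.

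Each gene was also set against the liver sum in the same pool, a ratio chosen after the data were seen and taken without PC1. It lowers every gene's log2 difference by the same 0.52, and no ratio to the intestine or another tissue was taken. In CPM, pck1 was higher in klf9-/- within time points by a mean log2 difference of 0.74 (exact permutation p = 0.0066, two-sided, n = 12 pools per genotype). Relative to the liver markers the difference was 0.22 (exact permutation p = 0.145). For g6pca.1 it was 0.59 in CPM (exact permutation p = 0.0049) and 0.07 as a ratio (exact permutation p = 0.43), and for g6pca.2 it was 0.63 in CPM (exact permutation p = 0.0025) and 0.11 as a ratio (exact permutation p = 0.36). A p that misses the threshold does not show that the genotypes have equal ratios, and the ratio does not tell which tissue the transcripts came from.

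fbp1b differed by 0.09 in CPM (exact permutation p = 0.59) and by -0.43 as a ratio, and at each time point every klf9-/- pool had a lower fbp1b ratio than every wildtype pool. For the other 6 genes the ratio differed by -0.61 to -0.23, from CPM differences of -0.09 to 0.29. These negative signs restate the higher liver sum and are no separate result on the genes. The p-values are not adjusted for the 10 genes.

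**Figure D4:**
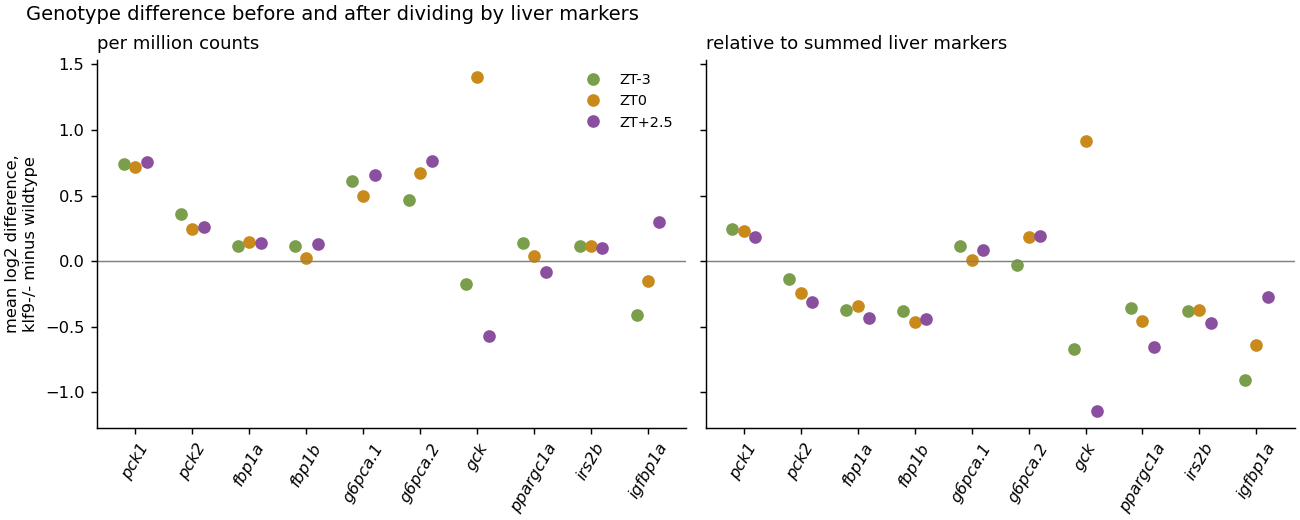
Mean log2 difference of klf9-/- minus wildtype (y axis) for the 10 genes at ZT-3, ZT0 and ZT+2.5, from CPM (left panel) and from CPM divided by the summed liver markers (right panel), with 4 pools per genotype and time point. pck1, g6pca.1 and g6pca.2 lie between 0.46 and 0.76 in the left panel and between -0.03 and 0.24 in the right panel.

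Some of the genes moved together over pools. After removal of PC1, log2 CPM of pck1 correlated with g6pca.2 at 0.90, with pck2 at 0.89 and with g6pca.1 at 0.86 over the 24 pools, and pck2 with fbp1b at 0.87, as a description of libraries that share groups and scaling. pck1 correlated with fbp1a at 0.31, with irs2b at 0.25, with ppargc1a at 0.03 and with igfbp1a at -0.16. With group means removed too, pck1 and g6pca.1 were at 0.60 and fbp1b and g6pca.2 at 0.33. Among 19630 genes with a mean of at least 1 CPM, the closest to pck1 was slc13a2, a carrier of dicarboxylates and citrate (r = 0.96). The next were slc43a2b, a carrier of neutral amino acids (r = 0.94) and unm_hu7912 (r = 0.93). For g6pca.2 the closest genes were ctsh, a lysosomal protease (r = 0.93), slc16a12a (r = 0.93) and gnb5b (r = 0.93). For g6pca.1 they were cdab, agxtb and pla2g12a (r = 0.94 to 0.93), and for fbp1b sec14l7, dpys and sult1st6 (r = 0.95 to 0.93). gck had its closest match in g0s2, an inhibitor of fat breakdown in mammals (r = 0.85), and the next gene was at 0.76.

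Of the other enzymes of gluconeogenesis and glucose output, 17 of 18 listed were in the table. Over all time points 0 of 17 passed by edgeR or by DESeq2, with a median log2 fold change of 0.16. Of all genes, 4.91% passed by edgeR and 1117 genes by DESeq2. On edgeR adjusted p alone 12 of 17 passed, where 36% of all genes did. An unadjusted edgeR p under 0.05 was reached by 12 of 17, and by 9049 of all 23158 genes. At ZT0 1 of 17 passed, where 3.43% of all genes did. The gene was the glucose transporter slc2a2, by which glucose leaves liver cells, at 0.50 ± 0.10 (edgeR adjusted p = 0.018), at the edge of the fold threshold. g6pcb, another glucose-6-phosphatase gene, fell at ZT+2.5 against ZT0 in both genotypes, by a log2 fold change of -1.24 ± 0.47 in klf9-/- (edgeR adjusted p = 0.094) and -1.29 ± 0.45 in wildtype (adjusted p = 0.063). Its levels were very low, with group means of 0.085 to 0.21 CPM, so that each pool held few reads of it.

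Glycolytic enzymes had 1 of 33 called over all time points, where 4.91% of all genes were, and a median log2 fold change of 0.09 over the 33. The called gene was pklr, the liver and red cell pyruvate kinase, at 0.67 ± 0.14 (edgeR adjusted p = 0.0012). On edgeR adjusted p alone 22 of the 33 passed, where 36% of all genes did. Of 15 glycogen enzymes 0 passed over all time points by edgeR or by DESeq2, where 4.91% and 1117 of all genes did. An unadjusted edgeR p under 0.05 was reached by 9 of 15, against 9049 of all 23158 genes. On edgeR adjusted p alone 9 of 15 passed, beside the same 36% of all genes. At ZT+2.5 against ZT-3 gyg2, a glycogenin that primes glycogen, fell by 1.49 ± 0.19 in klf9-/- (edgeR adjusted p = 3.9e-06) and by 1.66 ± 0.19 in wildtype (adjusted p = 7.0e-07), and gbe1a, a branching enzyme, rose by 0.59 ± 0.14 in klf9-/- (adjusted p = 0.0031) and by 0.57 ± 0.14 in wildtype (adjusted p = 0.0038).

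Between the genotypes over all time points, 0 of 28 regulators and fat oxidation genes of fasting passed by edgeR or DESeq2. Of all genes, 4.91% passed by edgeR and 1117 genes by DESeq2, so a count of 0 is near that share. An unadjusted edgeR p under 0.05 was reached by 12 of 28, against 9049 of all 23158 genes. On edgeR adjusted p alone 11 of 28 passed, where 36% of all genes did. Of 23 genes of insulin, glucagon and insulin-like growth factor signalling 0 passed by edgeR or DESeq2, beside the same 4.91% and 1117 of all genes. With edgeR, 11 of 23 had an unadjusted p under 0.05, against 9049 of all 23158 genes. On edgeR adjusted p alone 9 of 23 passed, where 36% of all genes did. Across time tat, the tyrosine aminotransferase that glucocorticoids induce in liver, rose at ZT+2.5 against ZT-3 by 2.31 ± 0.17 in klf9-/- (edgeR adjusted p = 2.2e-09) and by 2.07 ± 0.17 in wildtype (adjusted p = 1.4e-08). In the same comparison igfbp1b, the paralog of igfbp1a, rose by 1.04 ± 0.26 in klf9-/- (edgeR adjusted p = 0.0049) and by 0.65 ± 0.27 in wildtype (adjusted p = 0.087). hnf4a, a transcription factor of liver and gut, fell by 0.59 ± 0.10 in wildtype (edgeR adjusted p = 2.0e-04). Its means at ZT-3 and ZT+2.5 were 21.1 and 16.2 CPM in wildtype, and 23.9 and 21.0 CPM in klf9-/-, where it did not pass. The interaction of genotype and time passed for 0 of the 28 genes, against 0.0173% of all genes.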

How the data were processed

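The authors trimmed the single-end reads, aligned them with STAR to the Ensembl release 101 genome and estimated reads per gene with RSEM 1.3.3 (processing notes). They deposited these expected counts without normalization, summed over entries of 1 symbol, and 18.0% of the values were not whole. They also deposited rlog values (regularized log2, DESeq2 1.30.1) and tables of their own fold changes and p-values, which were not used. Counts were rounded, filtered with filterByExpr and scaled by TMM. edgeR 4.0.16 (R 4.3.3) fitted each time point's 8 samples, all 24 with time, or all 24 with 6 group means, with the PC1 score of the Z-transformed rlog values as a covariate. DESeq2 1.42.0, other scaling, filters, no PC1 and a replicate block were alternatives. Reads cover genes of different length, so levels were not compared between genes. Genes named are the 10 members, the largest rise and fall in each related list, and the 3 nearest genes. The scripts were tested on simulated data. Members and lists were chosen with earlier results of these data known.

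The replicate numbers of same-time pools paired samples only at ZT+2.5 (deviation correlations 0.25 to 0.47) and, in wildtype, between ZT-3 and ZT+2.5 (0.16 to 0.40). These deviations included PC1.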

Additional observations from a re-analysis of the deposited data

Results flagged for a closer look

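Of 60 groups of 4 pools tested for a pool far from the others, 2 had one, where chance gives about 1 in 20. The irs2b level of klf9-/- ZT0 replicate 1 was 53.19 CPM, against 54.14 to 54.25 CPM in the other 3 pools of that group, a gap of about 1 CPM. The igfbp1a level of wildtype ZT0 replicate 3 was 14.32 CPM, against 9.947 to 10.62 CPM in the others. Without that pool the ZT0 log2 fold change of igfbp1a was -0.07 instead of -0.22, and neither passed the test.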

How the results depend on the processing

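The counts are of the 10 members called, with the number of all genes called in brackets where one was available. Without PC1, 0 of the members passed at ZT0 (473 of all genes, against 772 with PC1) and 0 at ZT+2.5 (144 against 514). For ZT+2.5 against ZT0 it was 0 in klf9-/- (670 against 823) and 0 in wildtype (631 against 795). For ZT+2.5 against ZT-3 in klf9-/- it was 2 (1474 against 1728). Without the fold threshold the members called were 1 at ZT-3 and 6 over all time points (8339 of all genes). They were 4, 3 in klf9-/- (ZT0 against ZT-3, ZT+2.5 against ZT0) and 2, 3 in wildtype (ZT0 and ZT+2.5 against ZT-3). For ZT-3 and these time comparisons no number of all genes stands beside them, so they are not read as a result on the members. DESeq2 called 1 of the members at ZT-3 (722 of all genes, against 661 by edgeR) and 4 for ZT0 against ZT-3 in klf9-/- (794 against 834). With the replicate block and PC1, 2 of the members were called at ZT-3, pck1 and g6pca.1 (739 of all genes, against 661 without the block). At ZT+2.5 it was 0 (444 against 514), and the block moved no other count of members by over 1.5 times. Leaving out 1 pool in turn gave 0 to 3 members at ZT-3, 1 to 3 at ZT+2.5, 2 to 4, 1 to 2 and 1 to 5 in klf9-/- (ZT0 against ZT-3, ZT+2.5 against ZT0, ZT+2.5 against ZT-3), and 1 to 3, 0 to 1 and 0 to 3 in wildtype in the same order. These ranges have no number of all genes beside them and show only how the calls depend on single pools. The cause was not tested. No fitted log2 fold change of a called member changed sign under these alternatives, and the 3 calls over all time points held in each. Pools per group limit precision more than depth, since replicates differed beyond counting noise.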
